A study of Danio rerio with 6 samples.

Results

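A set of 217 genes was lower after UPHD25 in each of 3 replicate pairs of libraries from dissected zebrafish kidney tubules. UPHD25 is a prodrug of the histone deacetylase inhibitor PTBA. The members were selected on their measured values. Counts were scaled to counts per 1000000 of the library (CPM) with edgeR's TMM factors over the 26081 genes with a count. A gene was kept when its mean over the DMSO libraries was at least 1 CPM and when, in each same-numbered pair, the UPHD25 library had at most 0.67 times the CPM of the DMSO library. These 217 genes were 1.3% of the 16647 genes that reached 1 CPM after DMSO. The mirror rule, a ratio of at least 1/0.67 in every pair, kept 674 genes. All UPHD25-to-DMSO differences of the members given here follow from that choice and are a description, with no test.

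All 6 libraries came from Tg(PT:EGFP) larvae, in which a transgene marks the proximal tubule with EGFP. Every larva had received gentamicin at 3 days post-fertilization (dpf) to cause acute kidney injury (gent-AKI), so no group was uninjured. From 2 days post-injection (5 dpf) the larvae were kept for 24 h in 1% DMSO alone (gent-AKI+DMSO, 3 libraries) or in 1 μM UPHD25 with 1% DMSO (gent-AKI+UPHD25, 3 libraries). Each library was made from hand-dissected fluorescent tubules of a pool of 100 larvae, and gene counts per library summed to between 10781071 and 30750026.

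The members include genes of skeletal muscle, of leukocytes and of the exocrine pancreas. The dissected samples held RNA of many such genes besides that of the tubule. In the DMSO libraries a list of skeletal muscle markers summed to 44300 to 53900 CPM. Exocrine pancreas markers summed to 19000 to 28900 CPM, and proximal tubule markers to 1190 to 1590 CPM. Skeletal muscle contracts when a nerve signal opens channels in the muscle membrane, calcium leaves the sarcoplasmic reticulum, and myosin filaments pull on actin filaments inside the sarcomere, which titin holds in register. Macrophages and neutrophils enter injured kidney and release proteases and cytokines. Acinar cells of the exocrine pancreas make digestive enzymes. Histone deacetylases remove acetyl groups from histones and other proteins.

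After the values were seen, 88 members were sorted into roles built on these themes. The other 129, which include genes of well-known function, were left unsorted. The sorting placed 43 of the 217 members in skeletal or other striated muscle and 30 in leukocytes and inflammation. The 30 include 6 genes of the mfap4 family, placed there by name. A further 4 were placed in the exocrine pancreas, 4 among globins and red cell surface proteins, and 7 among sensory and epithelial cation channels. Only members were sorted, so no share of all genes stands beside these counts and nothing is read from them. Which cells expressed the sorted genes was not tested. Symbols are those of the gene name table, which gives some zebrafish genes human-style symbols in capitals. Several zebrafish genes can then share a symbol, and 19 members had no symbol.

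**Figure D1:**
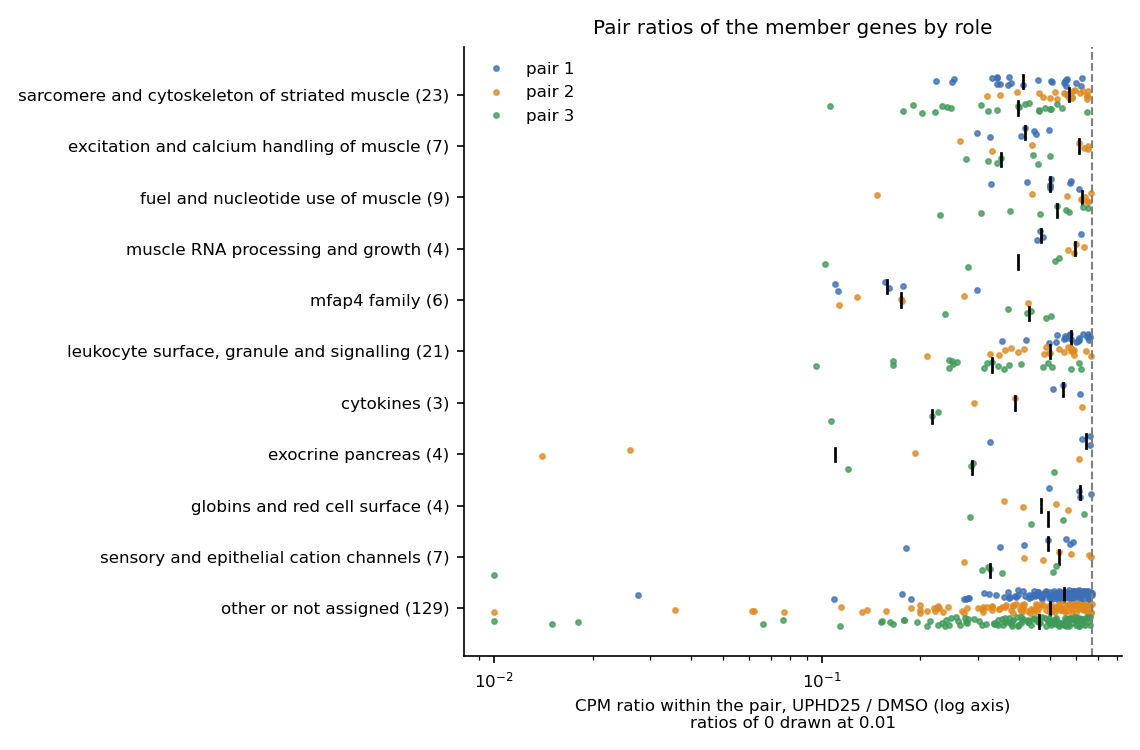
CPM ratio of UPHD25 to DMSO within each replicate pair (log axis) for the 217 members, in rows by role with the number of genes in brackets. Each dot is a gene in 1 pair, black bars are medians, and the dashed line is the selection limit of 0.67; muscle rows have their highest medians in pair 2, the mfap4 row in pair 3, and the leukocyte row in pair 1.

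Many of the members with the highest DMSO CPM were genes of the muscle sarcomere. The fast myosin heavy chain gene myhz1.1 had 2143, 2391 and 2196 CPM in DMSO libraries 1, 2 and 3 and 736, 1425 and 946 CPM in the same-numbered UPHD25 libraries. Its neighbour in the gene order, myhz1.2, had 1049, 1163 and 1209 CPM after DMSO and 349, 681 and 229.9 CPM after UPHD25. For both genes every UPHD25 library lay below every DMSO library, and pair 2 held the smallest difference. Such a separation was seen in 8.42% of all genes tested, and the rule favours it in members. The fitted log2 fold change was -1.08 (SE 0.30) for myhz1.1 and -1.41 (SE 0.39) for myhz1.2. Another member of the family, myhz1.1l, went from 783, 789.7 and 569 CPM to 488, 312 and 174 CPM.

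The rule did not take the whole myosin family. Of 8 myosin heavy chain genes of this kind at 1 CPM or more, 3 were members, against 1.3% of all genes. The gene families named in this report were picked because they held members, so nothing is read from their shares. The pair ratios of myhz2 were 0.556, 0.842 and 1.17, and those of myhz1.3 were 0.890, 0.959 and 1.83. For these 2 genes the UPHD25 library of pair 3 was above its DMSO partner, whereas myhz1.2 had its lowest ratio, 0.190, in that pair. These are close paralogs, and how reads that align to several of them were counted is not given in the sources used here, so the split between copies is uncertain.

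Both genes listed as TTN (titin, the sarcomere's molecular spring) were members, and both had overlapping groups. One of them (ENSDARG00000028213) had 809.7, 2392 and 2363 CPM after DMSO and 302, 1552 and 989 CPM after UPHD25. The other (ENSDARG00000000563) had 770.1, 2287 and 2316 CPM after DMSO and 264, 1435 and 1215 CPM after UPHD25. Pair 1 was low in both treatments, so its DMSO library lay below UPHD25 libraries 2 and 3 while each pair still differed in the same direction. The fitted changes were therefore imprecise, at -0.94 (SE 0.62) and -0.85 (SE 0.64). The same low level in pair 1 was seen for XIRP2, which binds actin at the ends of muscle fibres, with 35.8, 103 and 84.5 CPM after DMSO and 8.00, 36.0 and 21.0 CPM after UPHD25. It was also seen for lama2, the laminin chain of the muscle basement membrane, with 12.9, 65.9 and 58.4 CPM against 7.73, 42.7 and 20.1 CPM.

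**Figure D2:**
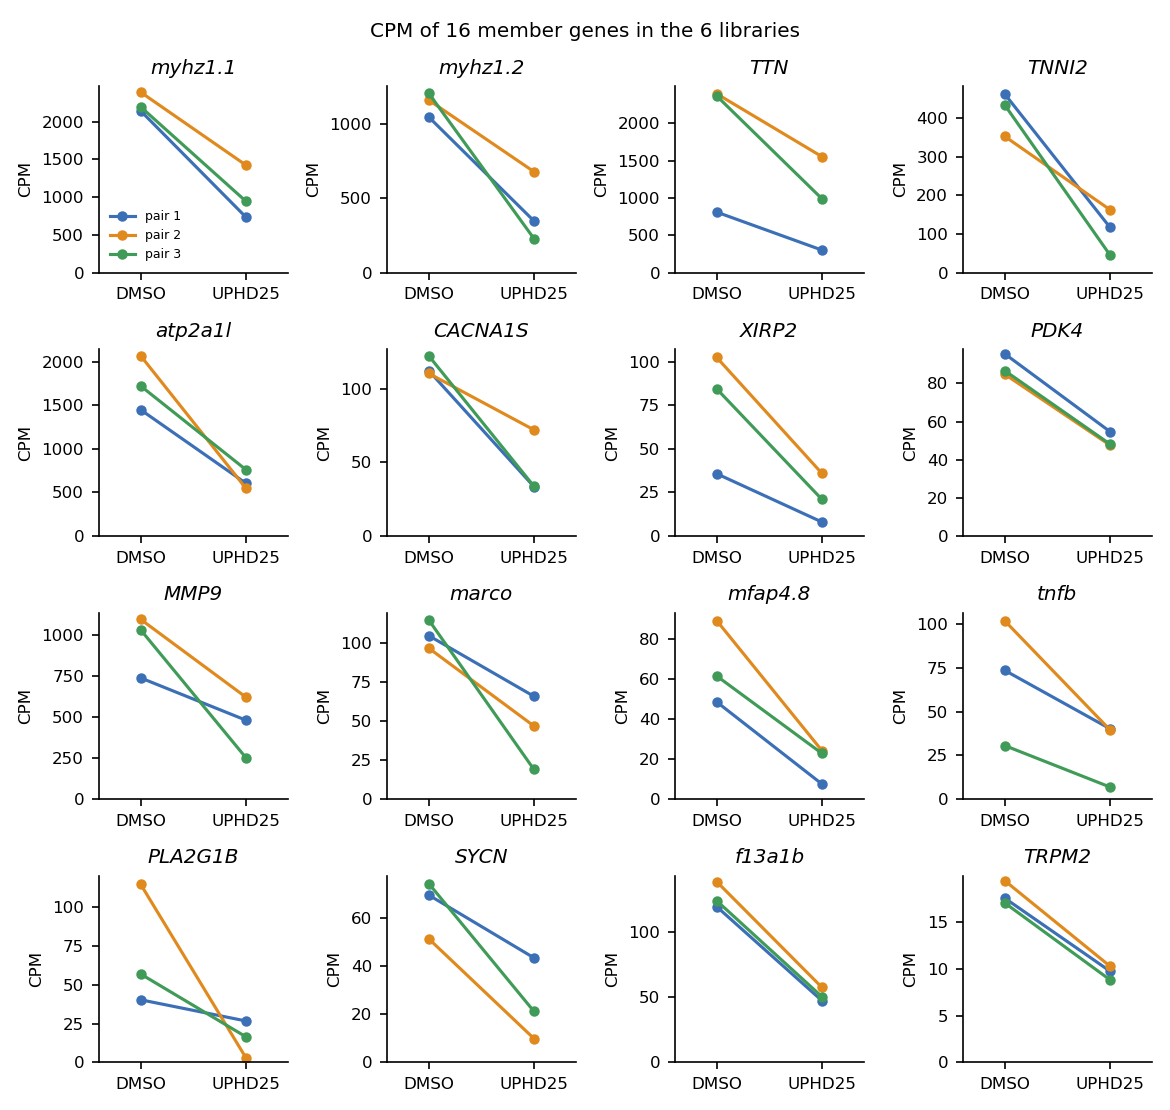
CPM of 16 members in the 6 libraries, with lines joining the DMSO and UPHD25 libraries of the same number and each vertical axis starting at 0. Genes such as f13a1b and PDK4 have nearly parallel lines, TTN and XIRP2 have a low pair 1 in both treatments, and PLA2G1B has its steepest line in pair 2; TTN and TNNI2 show the member of that symbol with the higher DMSO mean.

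Troponin I2 genes encode the inhibitory subunit of fast-muscle troponin. Of 6 listed under TNNI2, 2 were members, against 1.3% of all genes at 1 CPM or more. The one with more CPM had 463, 353 and 434.5 CPM after DMSO and 118, 163 and 46.0 CPM after UPHD25, a log2 fold change of -1.90 (SE 0.42). The other had 297.5, 268 and 284 CPM against 165.5, 147.5 and 66.2 CPM. Neither gene's groups overlapped. Of the 4 that were not members, each exceeded the limit in pair 2, with ratios there of 0.925, 1.04, 1.23 and 0.771. The beta taxilin genes TXLNB and txlnbb were both members, with 117, 192 and 219.8 CPM against 53.5, 118 and 88.0 CPM and 114, 141 and 149 CPM against 63.0, 78.8 and 71.9 CPM. Among filament genes, tpm1, a tropomyosin, had 667, 560.2 and 587 CPM after DMSO and 374, 289 and 233 CPM after UPHD25. A gene listed as TNNT2, by its symbol a troponin T of heart muscle, was the only member on the cardiac muscle list. It had 9.37, 8.33 and 9.84 CPM against 3.48, 4.86 and 2.19 CPM. Another gene listed as TNNT2, with a DMSO mean of 75.55 CPM, was not a member. Its ratios were 1.28, 0.457 and 0.344. The myosin binding protein C genes mybpc2b and MYBPC2 had fitted changes of -1.15 (SE 0.32) and -1.47 (SE 0.37), and both genes listed as MYLK4, a myosin light chain kinase, were members with -1.07 (SE 0.18) and -1.39 (SE 0.19).

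Genes of excitation and calcium handling were the second muscle group. The calcium pump gene atp2a1l had 1447, 2066 and 1720 CPM after DMSO and 604, 546 and 760.1 CPM after UPHD25 (log2 fold change -1.43, SE 0.25). Its 3 DMSO libraries all lay above its 3 UPHD25 libraries. Its paralog atp2a1, the fast-muscle pump of the sarcoplasmic reticulum, was not a member because pair 2 had a ratio of 0.885, against 0.440 in pair 1 and 0.341 in pair 3. CACNA1S, the voltage sensor of the muscle calcium channel, had 112.5, 111 and 123 CPM after DMSO and 33.5, 72.2 and 33.8 CPM after UPHD25. STAC3, an adaptor that this channel needs, had 83.4, 91.8 and 109 CPM against 33.8, 59.9 and 37.5 CPM. Both had pair 2 as their highest ratio, at 0.653 and 0.652.

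Excitation at the membrane was represented by CHRNA1, a subunit of the acetylcholine receptor at the neuromuscular junction, and by scn4ab, a muscle sodium channel. CHRNA1 had 105, 103 and 99.6 CPM after DMSO and 47.2, 65.4 and 32.0 CPM after UPHD25. Levels of scn4ab were 113, 172 and 133 CPM against 50.2, 75.3 and 46.9 CPM. JPH1, which ties the muscle membrane to the calcium store, had 179, 194.5 and 197 CPM against 88.3, 118 and 98.0 CPM. For each of them the lowest DMSO library lay above the highest UPHD25 library. In pvalb7, a parvalbumin that buffers calcium, the groups overlapped, with 30.0, 12.9 and 4.33 CPM against 9.83, 4.30 and 1.99 CPM. Of 5 junctophilin genes at 1 CPM or more 1 was a member, against 1.3% of all genes at that level. JPH2 lay just outside the set with a highest ratio of 0.672, whereas JPH3 had ratios of 1.77, 2.02 and 1.65 and jph3a of 1.06, 3.81 and 2.42.

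A further 9 members were sorted under fuel, nucleotide and protein turnover of muscle. Of these 9, 0 met the rule when CPM was set by library totals, so their membership depended on the TMM factors. With library totals the rule kept 16 of 23 sarcomere and cytoskeleton members and 3 of 7 in excitation and calcium handling. It kept 16 of 21 in the leukocyte role. PDK4, the kinase that shuts off pyruvate dehydrogenase during fasting, was among the most even: 95.5, 84.8 and 86.7 CPM after DMSO and 54.8, 47.6 and 48.2 CPM after UPHD25, with pair ratios of 0.573, 0.561 and 0.556. PFKM, the muscle phosphofructokinase of glycolysis, had 67.2, 42.9 and 52.1 CPM against 22.2, 27.3 and 19.6 CPM. CPT1B, which brings fatty acids into muscle mitochondria, had 42.3, 28.7 and 31.9 CPM against 21.1, 17.9 and 9.74 CPM. The mitochondrial carrier gene ucp3 was uneven, with 115, 79.1 and 106 CPM against 48.8, 11.7 and 69.2 CPM, and its ratio of 0.148 in pair 2 was far below the 0.652 of pair 3. FBXO32 (atrogin-1), a ubiquitin ligase of muscle atrophy, had 110, 138 and 73.1 CPM against 63.6, 60.5 and 45.9 CPM. ADSS1 and AMPD3, which belong to the purine nucleotide cycle, had fitted changes of -0.79 (SE 0.22) and -0.87 (SE 0.21). They were the 2 members among 7 AMP deaminase and adenylosuccinate synthase genes at 1 CPM or more, against 1.3% of all genes. AMPD1, with a DMSO mean of 482.6 CPM, was not a member, with ratios of 0.55, 0.52 and 0.992. The fatty acid oxidation and glycolysis lists held 1 member each, CPT1B and PFKM, among 31 genes each (3.23%, against 1.3% of all genes). Each share rests on 1 gene, so nothing is read from it. Among the 4 members that regulate muscle RNA or growth, rbfox1l, a splicing factor, had 12.1, 10.4 and 20.8 CPM against 5.72, 5.88 and 2.12 CPM.

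Pair 2 set the limit for muscle. Of the 23 sarcomere and cytoskeleton members, 18 had their highest ratio in pair 2, as did 4 of 7 in excitation and calcium handling and 6 of 9 in fuel and nucleotide use. In the skeletal muscle marker list, 6 of 31 measured genes were members (19.4%, against 1.3% of all genes at 1 CPM or more). When the rule was applied without pair 2, 24 of the 31 met it, against 3.32% of all genes at 1 CPM or more. Without pair 1 there were 6, against 4.9% of all genes, and without pair 3 there were 7, against 3.23%. These left-out counts were added after the values were seen. The median fitted log2 fold change was -0.71 over the 31 list genes and -0.64 over the 25 that were not members, against 0.03 over all 17497 genes tested, and 30 of the 31 were below 0 (29 with library totals). The list's summed level was 44300 to 53900 CPM in the DMSO libraries and 19800 to 38800 CPM in the UPHD25 libraries. In such bulk samples fewer cells of a type and less RNA per cell cannot be told apart.

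**Figure D3:**
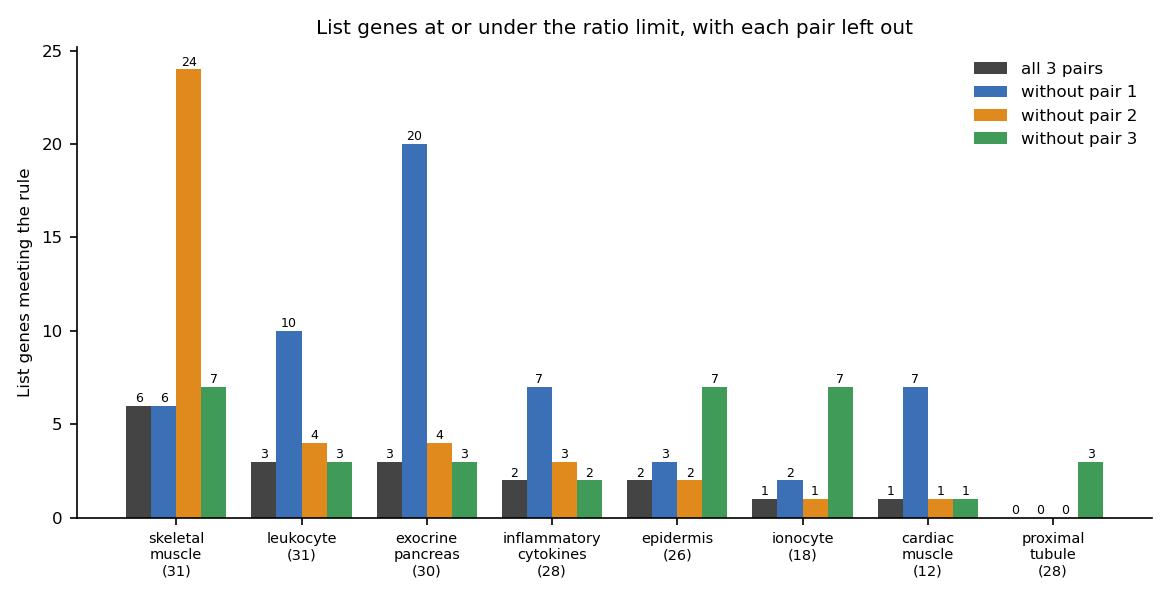
Number of genes of 8 lists that met the rule in all 3 pairs (dark bars) and with each pair left out (colours), with the list genes that had a count in brackets. Muscle genes meeting the rule went from 6 to 24 without pair 2, exocrine pancreas genes from 3 to 20 without pair 1, and proximal tubule genes from 0 to 3 without pair 3.

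The 6 members of the mfap4 family had the lowest median ratio of the roles. The genes are named for a microfibril-associated glycoprotein. An mfap4 gene serves as a macrophage marker in zebrafish, and which cells express each of these copies was not tested. Levels of mfap4.8 were 48.4, 88.9 and 61.4 CPM after DMSO and 7.55, 24.2 and 22.8 CPM after UPHD25 (log2 fold change -1.84, SE 0.45). Those of mfap4.7 were 19.9, 38.7 and 14.4 CPM against 2.19, 4.95 and 6.30 CPM, and those of mfap4.11 were 17.4, 39.1 and 15.8 CPM against 3.08, 6.82 and 6.70 CPM. DMSO library 2 was the highest and UPHD25 library 1 the lowest for all 6 members. The groups overlapped only for mfap4.10. Groups without overlap, UPHD25 lower, were found in 8.42% of all genes tested, and the rule favours them. The remaining members, mfap4.6, mfap4.9 and mfap4.10, had DMSO means of 6.62, 2.27 and 2.56 CPM.

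In the RefSeq gene order mfap4.8, mfap4.7, mfap4.10 and mfap4.11 stand side by side with no other coding gene between them. Of 15 genes with this name and a count, 10 reached 1 CPM after DMSO and 6 of those were members, against 1.3% of all genes. The family was named because it held members, so nothing is read from its share. The 4 that were not members, all listed as MFAP4, had the opposite order of pairs. Their ratios in pair 3 were 0.186, 0.209, 0.237 and 0.398, and in pair 1 they were 0.680, 1.80, 0.703 and 1.03. By contrast all 6 members had their highest ratio in pair 3, with a median of 0.430 there against 0.158 in pair 1. The difference between these 2 parts of the family was not tested, and reads shared between near-identical copies could move counts from one to another.

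**Figure D4:**
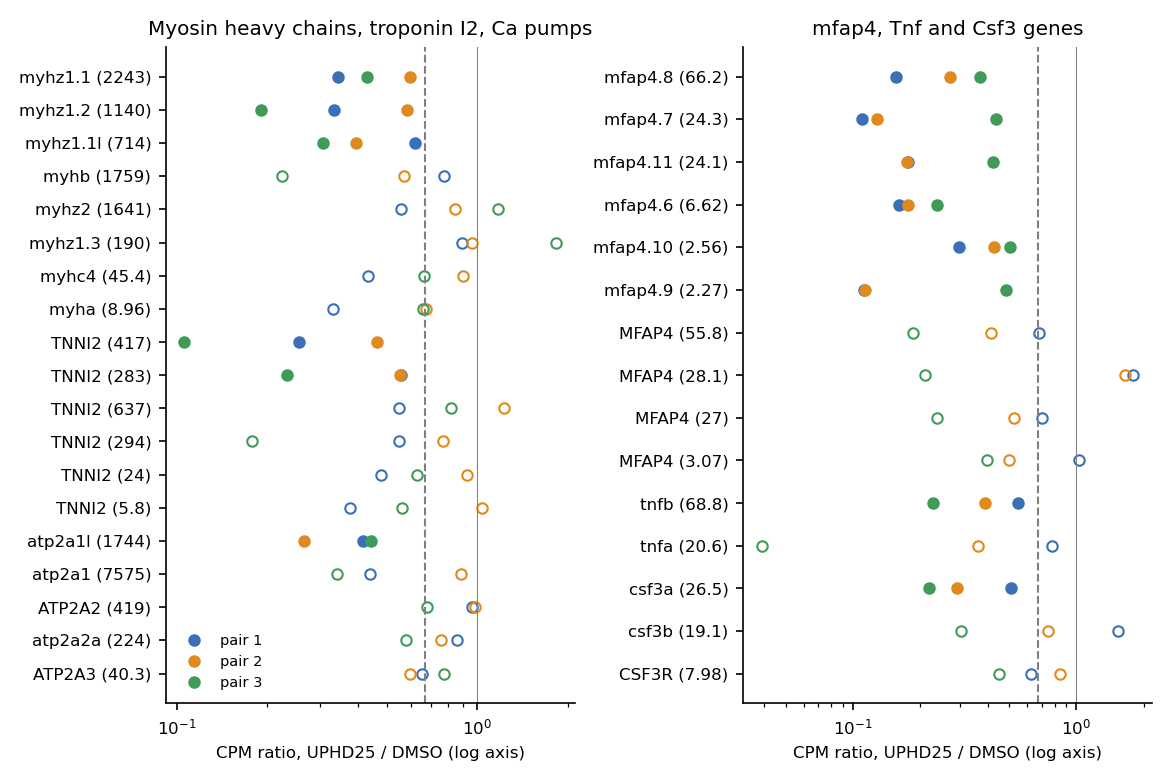
CPM ratio of UPHD25 to DMSO in each pair (log axis) for members (filled) and other genes at 1 CPM or more (open) of 6 gene families, with the DMSO mean CPM in brackets and the limit of 0.67 dashed. The open muscle circles of pair 2 lie mostly right of the limit, and the mfap4 members have pair 3 at the right where the other MFAP4 genes have it at the left.

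The leukocyte role, sorted apart from that family, held 21 members. MMP9, a gelatinase of neutrophils, macrophages and injured epithelium, had 736.5, 1092 and 1028 CPM after DMSO and 479.8, 619.6 and 252 CPM after UPHD25 (log2 fold change -1.05, SE 0.35). The macrophage scavenger receptor gene marco had 104, 96.4 and 114 CPM against 65.7, 46.7 and 18.96 CPM. Nephrosin, npsn, a protease of zebrafish neutrophils, had 78.5, 61.5 and 80.6 CPM against 45.0, 23.2 and 20.2 CPM. In these 3 genes UPHD25 library 3 was the lowest of all 6 libraries. EPX, by its human-style symbol a peroxidase, had 59.5, 69.8 and 87.3 CPM against 31.04, 40.2 and 28.8 CPM. Which leukocytes express this zebrafish gene was not tested. LCP1 (L-plastin, an actin bundler of leukocytes) had 57.6, 41.9 and 62.9 CPM against 32.7, 17.4 and 16.2 CPM.

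Signalling members of the same role were measured at lower CPM. NCKAP1L, which drives actin assembly in blood cells, had 18.6, 13.6 and 24.8 CPM after DMSO and 12.1, 7.84 and 10.1 CPM after UPHD25. PTPN6 (SHP-1), a phosphatase that restrains leukocyte receptors, had 10.4, 8.99 and 15.3 CPM against 5.99, 4.95 and 5.70 CPM. The interleukin receptor genes il10ra, il2rb and il23r were all members, with geometric mean ratios that put them within the 0.276 to 0.537 range of the role. The lowest ratio of that range belonged to cd22, a lectin receptor of B cells, with 6.68, 10.8 and 15.2 CPM against 3.66, 4.30 and 1.46 CPM.

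Of the cytokine genes, tnfb, csf3a and m17 were members. Levels of tnfb, a tumor necrosis factor gene, were 73.7, 102 and 30.7 CPM after DMSO and 40.3, 39.7 and 6.96 CPM after UPHD25, so DMSO library 3 lay below UPHD25 libraries 1 and 2. Its paralog tnfa had ratios of 0.779, 0.365 and 0.0390 and was not a member. Levels of csf3a, a granulocyte colony-stimulating factor gene, were 23.2, 39.9 and 16.4 CPM against 11.8, 11.7 and 3.58 CPM, whereas csf3b had a ratio of 1.54 in pair 1. All 3 cytokine members had their lowest ratio in pair 3. The list of inflammatory cytokines and acute phase genes held 2 members among 28 genes (7.14%, against 1.3% of all genes), MMP9 and tnfb. Other cytokines of the list were not members: cxcl8a had ratios of 1.33, 1.56 and 0.217, and il1b had 0.651, 0.687 and 0.253.

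Pair 1 set the limit for leukocyte genes. Of the 21 members in that role, 14 had their highest ratio in pair 1 and 16 their lowest in pair 3. In the leukocyte list 3 of 20 genes at 1 CPM or more were members (15%, against 1.3% of all genes), namely LCP1, marco and npsn. Of the list's 29 symbols 26 were matched to genes, and EPX was not among those genes. The list symbol mfap4 was matched to the genes listed as MFAP4, none of them members. It was not matched to the numbered mfap4 genes that were members. The list's counts, sums and medians therefore include the first part of that family and leave out the second. Of 31 list genes with a count, 10 met the rule without pair 1, against 4.9% of all genes. Without pair 2 there were 4, against 3.32%, and without pair 3 there were 3, against 3.23%. These left-out counts were also added after the values were seen. The list's 31 genes with a count summed to 753 to 892 CPM after DMSO and to 241 to 645 CPM after UPHD25, and its 28 genes that were not members had summed ratios of 0.924, 0.812 and 0.293. The median log2 fold change was -0.80 over the 21 list genes tested and -0.61 without UPHD25 library 3. MPEG1, a macrophage gene of the list that was not a member, had 114, 161 and 100.1 CPM against 131, 157 and 31.3 CPM, so only its pair 3 lay under the limit.

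The exocrine pancreas gave members with very low ratios in pair 2. PLA2G1B, the secreted pancreatic phospholipase, had 40.4, 115 and 56.9 CPM after DMSO and 26.7, 2.99 and 16.5 CPM after UPHD25. The chymotrypsinogen gene ctrb.3 had 5.73, 26.7 and 4.42 CPM against 1.88, 0.374 and 0.530 CPM, for a fitted change of -3.59 (SE 0.87), which was -2.36 without DMSO library 2. SYCN (syncollin), a zymogen granule protein, had 69.3, 51.2 and 74.1 CPM against 43.3, 9.90 and 21.1 CPM. BHLHA15 (MIST1), a transcription factor of secretory cells, had 6.68, 4.12 and 5.17 CPM against 4.42, 2.52 and 2.65 CPM, and its groups overlapped. In the exocrine pancreas list 3 of 28 genes at 1 CPM or more were members (10.7%, against 1.3% of all genes). Of its 30 genes with a count, 20 met the rule without pair 1, against 4.9% of all genes. Without pair 2 there were 4, against 3.32%, and without pair 3 there were 3, against 3.23%. These counts, too, were added after the values were seen. The summed level of the 30 list genes was 19000 to 28900 CPM after DMSO and 6040 to 17400 CPM after UPHD25, with a ratio of 0.871 in pair 1 and 0.209 in pair 2.

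The globin members were measured at low CPM. The gene with more CPM of 2 member genes listed as HBE1, a hemoglobin beta chain, had 15.2, 20.2 and 11.9 CPM after DMSO and 7.504, 7.28 and 7.56 CPM after UPHD25. Of 8 globin genes at 1 CPM or more 3 were members, against 1.3% of all genes. This family too was picked because it held members, so nothing is read from its share. The globin with the most counts, hbae3, was not a member, with a ratio of 0.690 in pair 1. The erythroid list had 1 member among 8 genes at 1 CPM or more (12.5%, against 1.3% of all genes), hbae1.1. That share rests on 1 gene, so nothing is read from it.

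Cation channels, sorted under sensory cells and epithelia, were the last group, and their functions differ. TRPA1 and trpa1a encode irritant receptors, trpv1 a heat and acid receptor, TRPM5 a channel of taste cells, TRPM2 a channel opened by oxidants, and TRPV6 a calcium uptake channel of epithelia. TRPM2 was the most even of them, with 17.5, 19.4 and 17.01 CPM after DMSO and 9.74, 10.3 and 8.82 CPM after UPHD25. TRPA1 had 12.99, 6.93 and 9.67 CPM against 6.39, 4.02 and 3.12 CPM, and trpv1 had 8.62, 6.55 and 8.34 CPM against 5.05, 4.30 and 2.72 CPM. TRPV6 had 0.988, 1.03 and 1.58 CPM against 0.179, 0.280 and no count, close to the floor of 3 counts, which was 0.102 to 0.281 CPM across libraries. Of 24 genes of the TRP superfamily at 1 CPM or more 6 were members, against 1.3% of all genes at that level. The family was picked because it held members, so nothing is read from that share. Other genes of the superfamily were higher after UPHD25 in every pair. Among them were TRPM3 (ratios of 1.36, 4.32 and 2.71), TRPC1 (1.29, 1.88 and 2.73) and trpm1b (1.52, 1.39 and 4.2). TRPV4 was not a member, with ratios of 0.996, 1.84 and 0.479.

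Some members fitted none of these roles. One of the most even was f13a1b (ENSDARG00000036893), a gene for the A subunit of coagulation factor XIII, the transglutaminase that cross-links fibrin. It had 119, 138 and 123.5 CPM after DMSO and 47.2, 57.3 and 50.2 CPM after UPHD25, ratios of 0.397, 0.415 and 0.406, and a log2 fold change of -1.27 (SE 0.17). Both other genes listed as F13A1 stayed under 1 CPM. The actin-binding profilin gene pfn1, on the epidermis list, had 608, 701 and 738 CPM against 370.3, 381.5 and 489 CPM, and lye, also on that list, had 47.1, 67.8 and 76.1 CPM against 27.7, 36.0 and 42.2 CPM. The summed level of the other 24 genes on the epidermis list was 1930 to 2260 CPM after DMSO and 1660 to 3810 CPM after UPHD25. The receptor tyrosine kinase gene ltk, on the pigment cell list, had 3.14, 11.5 and 5.84 CPM against 1.74, 5.32 and 2.92 CPM, and its neighbour itpka was also a member.

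No gene of the proximal tubule list (21 at 1 CPM or more), the distal tubule and collecting duct list (11) or the podocyte list (8) was a member. With 1.3% of all genes in the set, a count of 0 in lists of this size is near the overall share. The 28 proximal tubule genes with a count summed to 1190 to 1590 CPM after DMSO and 1240 to 1550 CPM after UPHD25, with pair ratios of 1.03, 1.04 and 0.975. None of the lists for the cell cycle, heat shock chaperones, histone deacetylases, ribosomal proteins, interferon response, AP-1 and immediate early genes or nephron transcription factors held a member either. Of 49 lists 11 held a member, and 22 members were on a list. Markers of other tissues went in different directions. The 31 retina and lens genes with a count summed to 204 to 558 CPM after DMSO and 951 to 9540 CPM after UPHD25, and neuron and glia genes to 702 to 880 CPM against 954 to 2380 CPM. Liver plasma protein genes, none of them members, had summed ratios of 1.14, 0.376 and 0.547. Of the 34 with a count, 19 met the rule without pair 1, against 4.9% of all genes. Without pair 2 there were 0 and without pair 3 there was 1, and these counts were added after the values were seen. Cardiac muscle genes had summed ratios of 1.24, 0.599 and 0.317, endocrine pancreas genes of 1.37, 0.914 and 0.543, and pigment cell genes of 0.724, 1.35 and 0.594. The part of the tissue makeup of the dissected samples in the members' values was not tested.

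**Figure D5:**
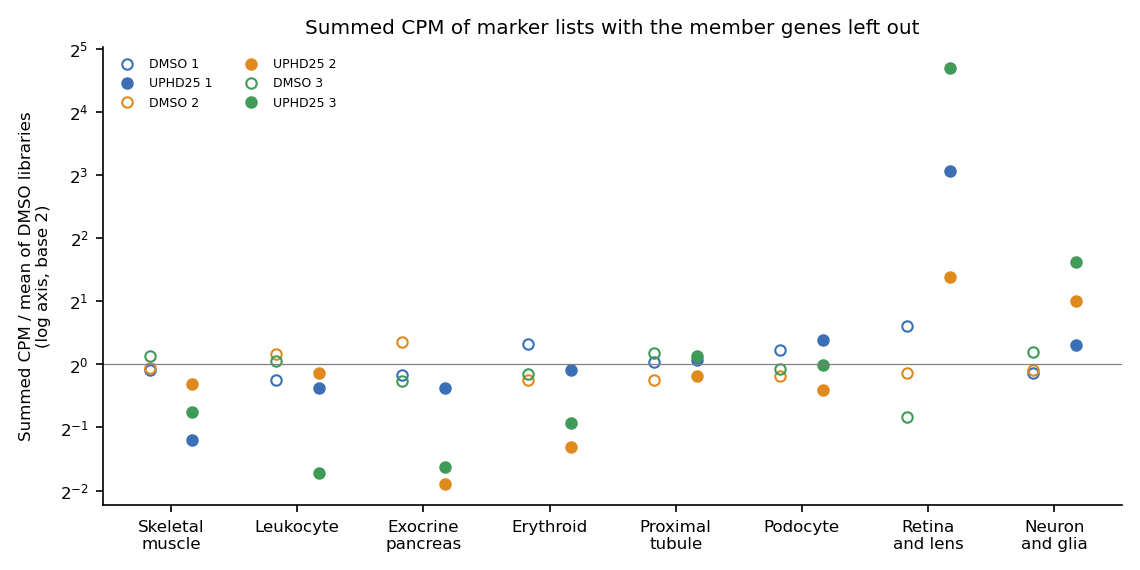
Summed CPM of 8 marker lists, members left out, in each library divided by the mean of the 3 DMSO libraries (log axis, base 2; open circles DMSO, filled circles UPHD25, colours by pair). The proximal tubule sums overlap between treatments, the skeletal muscle sums are separate with pair 2 closest, and the retina and lens sums lie above all DMSO libraries.

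As a whole, the 217 members took 1.39% to 1.86% of the gene counts in the DMSO libraries and 0.643% to 1.03% in the UPHD25 libraries. The median pair ratio was 0.546 in pair 1, 0.509 in pair 2 and 0.426 in pair 3, and 113 members had their lowest ratio in pair 3, 63 in pair 2 and 41 in pair 1. UPHD25 library 3 also had the TMM factor farthest from 1 (1.22, against 0.901 to 0.997 in the others). The 3 members just inside the limit, col23a1a and ENTPD2 among them, had highest ratios of 0.668, 0.669 and 0.669, and just outside it stood fhod3a, CACNG1 and JPH2, with 0.671, 0.672 and 0.672. A stricter limit of 0.5 in every pair kept 32 members.

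The highest DMSO mean was 2243 CPM. In all, 23 members were at 100 CPM or more and 78 were below 5 CPM. In 32 members at least 1 DMSO library had under 20 counts, so counting error is wide there. The proteasome subunit gene PSMC6 was among the 20 lowest by geometric mean ratio, with 2.62, 6.46 and 7.34 CPM after DMSO and 1.21, 1.21 and 0.133 CPM after UPHD25. Also among those 20 were zgc:195170, with 3.24, 10.1 and 3.67 CPM against 0.0893, 2.80 and 1.86 CPM, and si:ch211-209m20.7, with 5.49, 5.52 and 6.59 CPM against 1.88, 1.21 and 1.99 CPM. A further gene of the 20 had 2.69, 3.56 and 1.00 CPM against 0.759, 0.560 and 0.0663 CPM. For rsl1d1 the DMSO mean rested on 1 library, with 0.204, 6.09 and 0.167 CPM after DMSO and 0.134, 0.374 and 0.0663 CPM after UPHD25. A total of 57 members had overlapping groups and 160 did not, which the rule favours. Among all genes tested, 8.42% had groups without overlap and UPHD25 lower.

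In edgeR's quasi-likelihood fit 208 of the 217 members passed the filter on low counts. None of the 208 was called lower at an adjusted p under 0.05, and 0% of the 17497 genes tested were. At an unadjusted p under 0.05, 151 members were lower, against 3.41% of all genes tested. DESeq2 called 77 of the 217 lower at an adjusted p under 0.05, against 0.655% of its genes. The groups did not overlap for 156 of the 208, against 8.42% of genes. Since the same contrast chose the members, nothing is read from these shares. The median fitted log2 fold change was -1.05 for the members and 0.03 for all genes, and it became -0.93 and 0.15 when CPM was set by library totals in place of TMM. With library totals 127 genes met the rule, all of them members, and 65 members had every UPHD25 library at or under 0.67 times the lowest DMSO library.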

How the data were processed

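Per the labels and the study's methods, RNA came from fluorescent pronephric tubules of 100 pooled larvae per library, with a stranded mRNA kit and paired-end reads. The authors aligned reads to danRer11 with HISAT2 2.1.0 and made raw counts per gene with featureCounts; the deposited table holds these counts for 32520 genes. Strand setting, annotation release and treatment of reads aligning to several genes are not given in the sources used here. All 6 columns were matched to labels and 0 were left over. The study's methods say that experiments were repeated, without naming the repeat behind each library.

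CPM, TMM factors and the quasi-likelihood test (glmQLFit, glmQLFTest, group as the only term, filterByExpr, Benjamini-Hochberg over 17497 genes) were computed with edgeR 4.0.16 under R 4.3.3; the alternative test was DESeq2 1.42.0. SE is the log2 fold change divided by the square root of F. The steps were tested on simulated data. Same-numbered libraries deviated together (r = 0.495, 0.294 and 0.211 across genes, which are not independent replicates). Pairs were formed by number alone, and the sources used here do not say that same-numbered libraries share a repeat. A floor of 3 counts covers counting error only.

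Members, gene lists and roles were chosen with earlier results of these data known. The rule for naming genes took the 20 symbol-bearing members with the highest DMSO mean, the 20 with the lowest geometric mean ratio, list members, families and genes next to the limit, plus members of a role and relatives named after their values were seen; 2 genes whose symbols are mainly numerals are given by value alone. Symbols were found for 89.8% of identifiers. A list symbol not found was matched to the capitalised symbol without its final letter or number. Gene order came from RefSeq GRCz12tu by symbol, for neighbours only. A member gene withheld from the text is not reported here by name.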

Additional observations from a re-analysis of the deposited data

How the results depend on the processing

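The number of genes meeting the rule was 217. It was 127 with library totals, 32 with a ratio limit of 0.5, 743 with 0.8, 404 with no minimum beyond a count in every DMSO library, 139 with a minimum mean of 5 CPM, and 65 when every UPHD25 library was set against the lowest DMSO library. With 1 pair left out it was 536 to 817. It stayed within 1.5 times of the main count with DESeq2 size factors (224, of which 209 were members), upper quartile factors (206, of which 196) and counts thinned to the smallest library, chosen after seeing the data (228, of which 176). Genes called lower were 0 in edgeR's fit, 121 by DESeq2's Wald test and 0 with the replicate block, which changed no call. They were also 0 under every other alternative, including each library left out. At an unadjusted p under 0.05 the fit had 596 genes lower, and the block had 879. For 36 members with a fitted change, named for a high DMSO mean or a low geometric mean ratio, 432 alternative values ranged from -4.93 to -0.41 on the log2 scale. None of these changed sign, 405 kept their side of the threshold and 27 passed it. All 27 were in DESeq2's Wald test, which called 0.655% of all its genes lower. The genes were chosen as lower in every pair of these same libraries, so nothing is read from these counts. Without DMSO replicate 2, 209 of 211 fitted members were below 0. Depth limits the 78 members under 5 CPM.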

Other observations

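Members without a known role also stood in small clusters of names. Both si:ch73-368j24.10 and si:ch73-368j24.14 were members, as were si:ch211-269k10.4 and si:ch211-269k10.5. In the RefSeq gene order zgc:172106 lay next to si:ch211-286b5.8, and both were members. The levels of zgc:172106 were 2.11, 5.43 and 5.00 CPM after DMSO and 0.983, 1.68 and 1.39 CPM after UPHD25. The gene with the lowest geometric mean ratio among members counted in every library was si:ch211-147g22.4, with 1.09, 2.62 and 4.42 CPM after DMSO and 0.715, 0.0934 and 0.0663 CPM after UPHD25. A total of 3 members had a UPHD25 library with no count.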
